A study of Mus musculus with 6 samples.

Results

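The secretory granule proteins and prohormone processing genes were the 10 genes *Chga*, *Chgb*, *Scg2*, *Scg3*, *Vgf*, *Pcsk1*, *Pcsk2*, *Cpe*, *Scg5* and *Pcsk1n*, found by symbol among the 19342 genes of the count table. All 10 were counted and passed the filter on low counts, together with 14619 genes in all. Their mRNA was compared between pancreatic islets of FXR-/- mice and of FXR+/+ mice, both 3 months old. FXR, encoded by *Nr1h4*, is a nuclear receptor for bile acids. The FXR-/- mice were FXR knockout mice on C57Bl/6, while the strain of the FXR+/+ mice and the deleted stretch of *Nr1h4* are not given in the sources used here. The labels name whole islets and no agent for either group. Each genotype had 3 libraries, named here female 1, male 1 and male 2, and whether a library held the islets of a single mouse is not stated in the sources used here, so the p-values measure the spread between these libraries, which may be technical.

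Peptide hormones are made as larger precursors, packed into granules in the Golgi and cut there on the way to the cell surface. Granins are acidic proteins that aggregate with the prohormones and help to form the granule, and several of them are themselves cut into active peptides. Prohormone convertases cut the precursors after pairs of basic residues, and carboxypeptidase E trims the basic residues that are left. In islets such proteins serve the granules of insulin, glucagon, somatostatin and pancreatic polypeptide, but the convertases need not be shared evenly between these cell types.

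Library totals ranged from 20629306 to 30139235 counts, and the 10 genes together took 2.67% to 3.33% of them. *Ins1* and *Ins2*, close copies whose reads the counting could split, together took 17.5% to 23.9%. *Nr1h4* was counted at 14.2, 13.6 and 12.2 CPM (counts per 1000000 counts of the library after TMM scaling) in FXR+/+ islets and at 5.67, 7.63 and 5.81 CPM in FXR-/- islets, lower in every FXR-/- library (log2 fold change -1.07, SE 0.160, adjusted p = 0.217 by edgeR's quasi-likelihood test, 0.0441 by edgeR with the replicate number as a block, and 8.6e-05 by DESeq2). Markers of exocrine acinar cells took 5.20% to 14.5% of the counts in FXR+/+ and 7.56% to 15.1% in FXR-/- islets, and in both genotypes the male 1 library was the highest. In such bulk samples, fewer cells of a type and less RNA per cell cannot be told apart.

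The granule genes showed small differences between the genotypes, with log2 fold changes of FXR-/- over FXR+/+ from -0.17 to 0.30 for 9 genes and 0.87 for *Vgf*. Of the 10 genes, 8 had a positive and 2 a negative value, with a median of 0.05, beside a median of 0.01 over all 14619 genes. By edgeR with a term for sex, none of the 10 passed an adjusted p under 0.05, and neither did any other gene (0% of 14619, lowest adjusted p = 0.129). At an unadjusted p under 0.05, 1 of the 10 genes was higher in FXR-/- islets and 0 were lower, beside 6.18% and 4.15% of all genes. All FXR-/- libraries stood above all FXR+/+ libraries for 1 of the 10, *Vgf*, beside 8.02% of all genes.

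**Figure D1:**
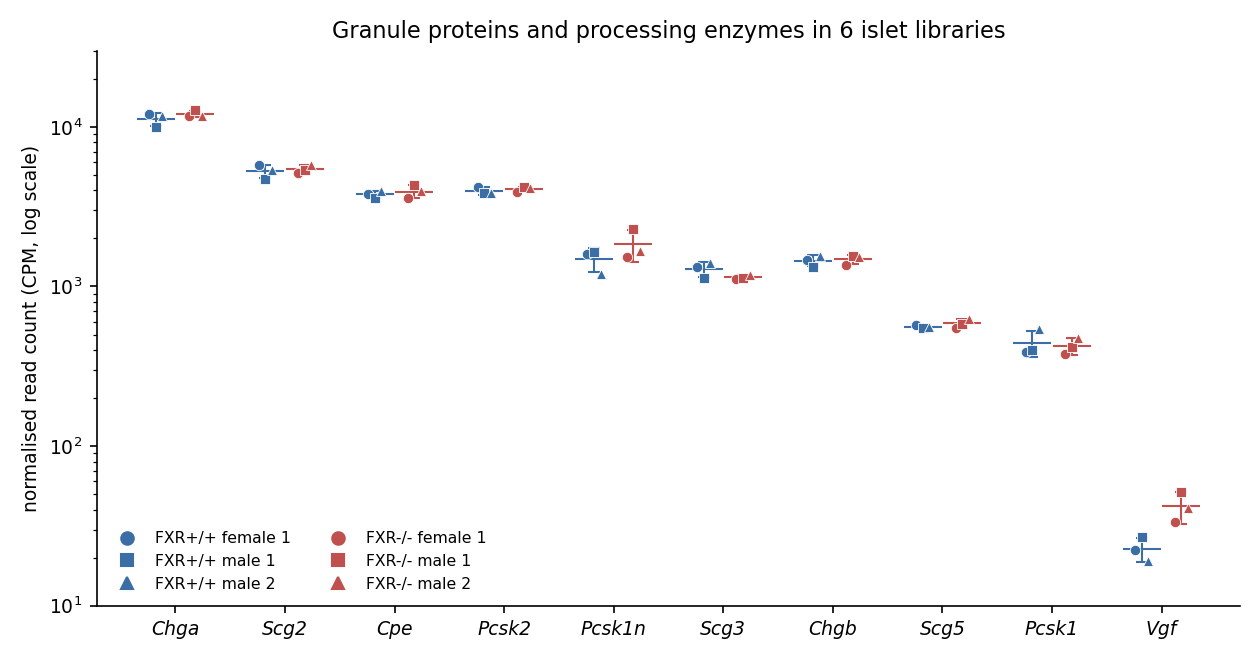
Normalised read count (CPM, log scale) of the 10 genes in each of the 6 libraries, with symbols for the female and the 2 male libraries, bars at the mean and whiskers of 1 SD (n = 3). The genotypes overlap for each gene except *Vgf*, whose FXR-/- libraries lie between 33.3 and 51.9 CPM and whose FXR+/+ libraries lie between 18.9 and 26.9 CPM.

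The levels of the 10 genes spanned a wide range. Per kilobase of deposited exon, *Chga* was the highest in FXR+/+ islets at 5887 ± 551 CPM per kb (SD, n = 3), followed by *Scg2* at 2124 ± 206 and *Cpe* at 1745 ± 83.3. *Pcsk2* at 851 ± 43.4, *Pcsk1n* at 674 ± 115, *Scg3* at 581 ± 63.9, *Chgb* at 531 ± 42.3 and *Scg5* at 455 ± 9.22 CPM per kb came next, and *Pcsk1* was counted at 177 ± 33.3 CPM per kb. *Vgf* was the lowest at 8.88 ± 1.56 CPM per kb. Over all 6 libraries, the ranges of neighbours in this order were apart only for *Chga* above *Scg2*, *Cpe* above *Pcsk2*, *Scg5* above *Pcsk1* and *Pcsk1* above *Vgf*. The other neighbours overlapped in their ranges, and *Scg3* stood above *Chgb* in 4 of the 6 libraries. By mean CPM in FXR+/+ islets, *Chga* ranked 6 and *Vgf* 6408 among the genes tested.

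Chromogranin A, the founding granin, is encoded by *Chga* (gene 12652, GRCm38 chr12:102554941-102565027). *Chga* was counted at 12007, 10044 and 11684 CPM in the female 1, male 1 and male 2 libraries of FXR+/+ mice and at 11626, 12694 and 11775 CPM in those of FXR-/- mice. The genotypes overlapped, and the lowest and the highest value were both in male 1 libraries (log2 fold change 0.10, SE 0.465, adjusted p = 0.945 by edgeR). For such highly counted genes the SE of this fit was larger than the SE from the spread between libraries, which was 0.0894 for *Chga*. *Chgb*, encoding chromogranin B (gene 12653, chr2:132781642-132795079), was counted at 1470, 1327 and 1556 CPM in FXR+/+ and at 1363, 1549 and 1528 CPM in FXR-/- islets, again with overlap (log2 fold change 0.03, adjusted p = 0.955 by edgeR).

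Secretogranin II, the precursor of secretoneurin, is encoded by *Scg2* (gene 20254, chr1:79434366-79440026). *Scg2* stood at 5754, 4736 and 5342 CPM in FXR+/+ and at 5132, 5366 and 5800 CPM in FXR-/- islets, a log2 fold change of 0.04 (SE from the spread between libraries 0.0968, adjusted p = 0.961 by edgeR). *Scg3* encodes secretogranin III, which binds chromogranin A at the granule membrane (gene 20255, chr9:75643366-75685959). It was counted at 1319, 1127 and 1402 CPM in FXR+/+ islets and at 1112, 1132 and 1181 CPM in FXR-/- islets. The FXR-/- value of female 1 lay just below the lowest FXR+/+ value and the other FXR-/- values within the lower part of the FXR+/+ range, and the log2 fold change of -0.17 did not pass the test (SE 0.146, adjusted p = 0.658 by edgeR). *Scg3* was the only one of the 10 genes with a negative log2 fold change under each of the 21 alternative settings, from -0.27 to -0.08, and none of these passed the adjusted threshold.

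*Vgf* encodes a granin-like precursor of several secreted neuropeptides, made in neurons and endocrine cells (gene 381677, chr5:137025301-137033351). It was counted 521, 542 and 600 times in FXR+/+ libraries and 822, 987 and 966 times in FXR-/- libraries. Scaled, this was 22.2, 26.9 and 18.9 CPM in FXR+/+ islets and 33.3, 51.9 and 40.6 CPM in FXR-/- islets. Each FXR-/- library stood above all 3 FXR+/+ libraries, and male 1 was the highest of each genotype. The FXR+/+ mean was 22.7 ± 3.98 CPM and the FXR-/- mean 42.0 ± 9.37 CPM (SD, n = 3), and the fitted log2 fold change was 0.87 (SE 0.170, 1.83-fold). The SE of *Vgf* from the spread between libraries was larger, at 0.235. Within same-numbered libraries the ratio of FXR-/- to FXR+/+ was 1.50 for female 1, 1.93 for male 1 and 2.15 for male 2.

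By edgeR with a term for sex, *Vgf* had an unadjusted p of 0.00112 and an adjusted p of 0.244, and it ranked 67 of 14619 genes by p. Another fit paired same-numbered libraries, with their number as a block, a pairing chosen from these data and not stated in the labels. It gave *Vgf* a log2 fold change of 0.88 (SE 0.113) and an adjusted p of 0.0441 by edgeR. *Vgf* was thus among the 23 genes, 0.157% of those tested, that passed in that fit. By DESeq2 with a term for sex the adjusted p was 0.00121, and 1.21% of 14052 genes passed. Under 21 alternative settings the log2 fold change of *Vgf* ran from 0.70 to 1.02 and the adjusted p from 0.00121 to 0.650, with 2 settings past the threshold. Measured against *Chga* within each library, the log2 ratio of *Vgf* was 0.78 higher in FXR-/- islets (SE 0.262, exact two-sided permutation p = 0.1, the smallest that 3 libraries against 3 allow), a ratio chosen after the values were seen.

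GC content and the share of acinar RNA were set beside the difference of *Vgf*. Its transcript has 64.1% GC, the highest of the 10, while those of the other 9 genes lie between 40.6% and 58.4%. Across all tested genes, grouped into 20 bins by GC content, the median log2 fold change rose from -0.14 in the bin of lowest GC to 0.16 in the bin of highest GC. Of 86 tested genes within 1 percentage point of the GC content of *Vgf*, *Vgf* included, the median log2 fold change was 0.20, and 5 had a value at least that of *Vgf*. With an offset for GC content in each library, added after the data were seen, the log2 fold change of *Vgf* was 0.70 (adjusted p = 0.221 by edgeR), and with this offset and the replicate block the adjusted p was 0.0692. With the share of acinar RNA as a term, *Vgf* stood at a log2 fold change of 0.72 (adjusted p = 0.155 by edgeR).

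**Figure D2:**
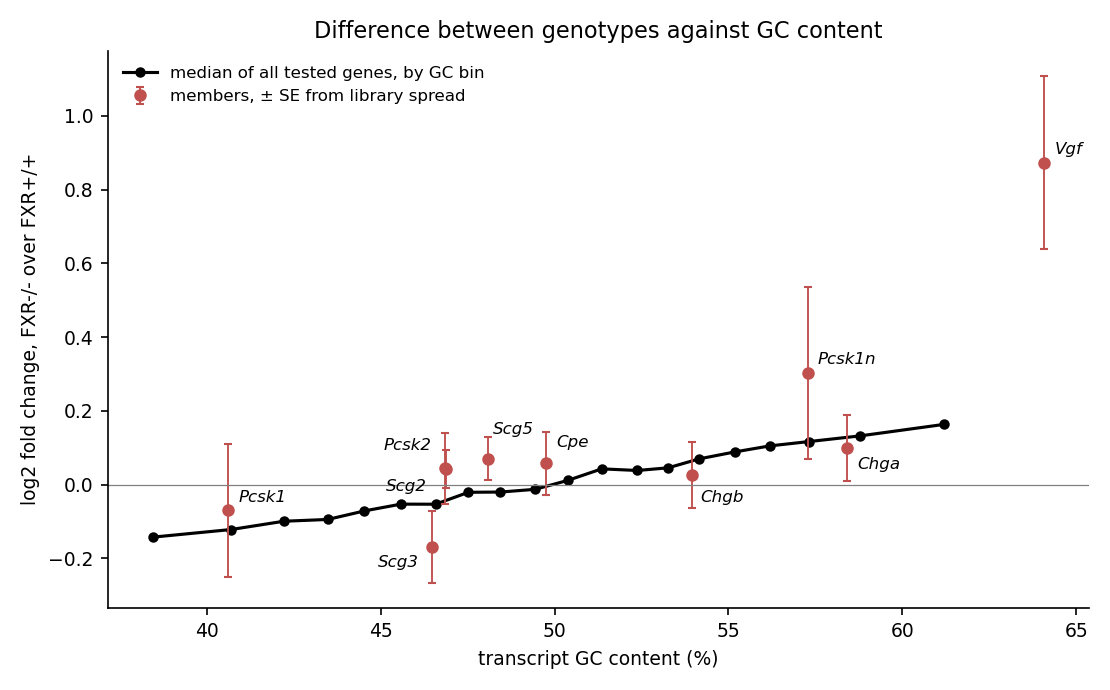
Log2 fold change of FXR-/- over FXR+/+ against transcript GC content (%). Black points are medians of the tested genes in 20 bins of GC content and rise from -0.14 to 0.16. Red points are the 10 genes with the SE from the spread between libraries, and *Vgf*, at 64.1% GC and a log2 fold change of 0.87, lies above the black line.

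Markers of other cell types were measured beside *Vgf*, and which of these cells held *Vgf* was not tested. The 9 markers of glia and neurons summed to 113 to 154 CPM in FXR+/+ and 123 to 136 CPM in FXR-/- islets, so the sums overlapped, while 8 of the 9 had a positive log2 fold change, with a median of 0.47, and at an unadjusted p under 0.05 2 were higher and 1 lower (6.18% and 4.15% of all genes). The 5 endothelial markers summed to 342 to 429 CPM in FXR+/+ and 439 to 690 CPM in FXR-/- islets, without overlap. All 5 had a positive log2 fold change, with a median of 0.46, and 4 were higher at an unadjusted p under 0.05 (6.18% of all genes). Of the 23 acinar markers 20 had a positive log2 fold change, with a median of 0.44, and 1 was higher at an unadjusted p under 0.05, again beside 6.18%. The 6 macrophage markers summed to 99.6 to 134 CPM in FXR+/+ and 131 to 155 CPM in FXR-/- islets, with 5 positive log2 fold changes, a median of 0.34 and 3 higher at an unadjusted p under 0.05. The 4 stellate and fibroblast markers summed to 32.1 to 115 and 84.8 to 109 CPM, and all 4 had a positive log2 fold change, with a median of 0.80, but none was higher at an unadjusted p under 0.05. The ductal markers summed to 239 to 278 and 227 to 267 CPM, and of the 5 tested 4 had a positive log2 fold change, with a median of 0.37 and 2 higher at an unadjusted p under 0.05. No marker of these lists was at 0 in all libraries. The part of GC content and of other cells in the difference of *Vgf* was not tested beyond the fits with a GC offset and an acinar term.

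The islet endocrine markers were present in every library. Beta cell markers summed to 194426 to 230590 CPM in FXR+/+ and 186872 to 271733 CPM in FXR-/- islets, alpha cell markers to 21582 to 37628 and 26929 to 38238 CPM, delta cell markers to 3091 to 5143 and 4192 to 5620 CPM, and *Ppy*, the marker of pancreatic polypeptide cells, to 2448 to 3182 and 2754 to 4063 CPM. The genotypes overlapped for each of these sums, but *Ins1* and *Ins2* made up most of the beta cell sum and *Gcg* most of the alpha cell sum. Single beta cell markers had log2 fold changes from -0.40 to 0.57. At an unadjusted p under 0.05 by edgeR, 2 of these 9 were higher and 0 lower, beside 6.18% and 4.15% of all genes. Libraries did not overlap for 1 of the 9, *Mafa*, beside 15.4% of all genes in either direction.

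For the convertases and the carboxypeptidase, the libraries of both genotypes overlapped. *Pcsk1* encodes prohormone convertase PC1/3, which makes the first cuts in proinsulin (gene 18548, chr13:75089420-75134861). It was counted at 390.1, 402 and 541 CPM in FXR+/+ and at 375, 419.96 and 475 CPM in FXR-/- islets. Male 2 was the highest library of each genotype, and the log2 fold change was -0.07 (SE 0.131, adjusted p = 0.846 by edgeR). *Pcsk2*, encoding convertase PC2, which is needed to make glucagon from its precursor (gene 18549, chr2:143546133-143816284), was counted at 4201, 3828 and 3879 CPM in FXR+/+ and at 3928, 4208 and 4118 CPM in FXR-/- islets (log2 fold change 0.04, adjusted p = 0.954 by edgeR). *Cpe*, encoding carboxypeptidase E (gene 12876, chr8:64592542-64693109), was counted at 3780, 3591 and 3951 CPM in FXR+/+ and at 3577, 4295 and 3938 CPM in FXR-/- islets. The ranges overlapped, and the log2 fold change was 0.06 (adjusted p = 0.937 by edgeR).

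The genes for the partners of the convertases behaved alike in that neither passed the test, but *Pcsk1n* had the wider spread. *Scg5* encodes 7B2, the chaperone that PC2 needs to become active (gene 20394, chr2:113776313-113829091). Its values of 571, 549.6 and 555 CPM in FXR+/+ and 549, 584 and 628 CPM in FXR-/- islets overlapped (log2 fold change 0.07, SE 0.103, adjusted p = 0.804 by edgeR). *Pcsk1n* encodes proSAAS, an inhibitor of PC1/3 (gene 30052, chrX:7919822-7924410). It was counted at 1593, 1653 and 1190 CPM in FXR+/+ and at 1534, 2303 and 1668 CPM in FXR-/- islets. The FXR-/- mean was the higher, but the female 1 library of FXR-/- lay below 2 FXR+/+ libraries, and the log2 fold change of 0.30 did not pass the test (SE 0.224, adjusted p = 0.608 by edgeR and 0.429 with the replicate block).

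Ratios of 2 genes within a library do not depend on its depth or scaling, but they are not free of a GC trend that differs between libraries. The count ratio of *Pcsk1n* to *Pcsk1*, inhibitor to enzyme, was 3.46 ± 1.10 in FXR+/+ and 4.36 ± 1.01 in FXR-/- islets (SD, n = 3), a difference of 0.37 ± 0.353 on the log2 scale (SE, exact permutation p = 0.5). Without the FXR+/+ male 2 library this difference was 0.0662, and without the FXR-/- male 1 library 0.188. The ratio was lowest in that male 2 library (2.20) and highest in that male 1 library (5.48). The transcript of *Pcsk1n* has 57.3% GC and that of *Pcsk1* 40.6%. In the GC bins of *Pcsk1n* and *Pcsk1*, the log2 deviations were -0.100 and 0.118 for this male 2 library. For this male 1 library they were 0.122 and -0.140. The part of GC content in the ratios was not tested. The ratio of *Scg5* to *Pcsk2*, chaperone to enzyme, was the most even of the ratios, at 0.136, 0.144 and 0.143 in FXR+/+ and 0.140, 0.139 and 0.152 in FXR-/- islets (log2 difference 0.03, SE 0.0505, exact permutation p = 0.8). The ratio of *Pcsk1* to *Pcsk2* was 0.112 ± 0.0242 and 0.104 ± 0.0104 (log2 difference -0.10, SE 0.192, exact permutation p = 0.7), and that of *Chga* to *Chgb* was 7.75 ± 0.364 and 8.14 ± 0.415 (log2 difference 0.07, SE 0.0576, exact permutation p = 0.2). The tests were two-sided, and each of the 4 ratios had a Benjamini-Hochberg adjusted p of 0.8 over these 4. Between same-numbered libraries, the ratio of *Chga* to *Chgb* and that of *Pcsk1n* to *Pcsk1* were higher in FXR-/- islets in 3 of 3 pairs, and the SE of the log2 difference over pairs was 0.0227 and 0.196. With 3 pairs, an exact paired test cannot give a p below 0.25.

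The difference between the genotypes was also compared between the sexes. With an interaction of sex and genotype, none of the 10 genes passed an adjusted p under 0.05 by edgeR, and neither did any other gene (0%). At an unadjusted p under 0.05, 0 of the 10 and 1.48% of all genes passed. Each sex by genotype group of females held a single library, so that the spread came from the males.

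Promoters of several granule genes are known for the cyclic AMP response element, the binding site of CREB, whose full form is the palindrome TGACGTCA. RefSeq promoter sequences (GRCm38.p6) were found for 8 of the 10 genes, without *Cpe* and *Vgf*. Each annotated start of a gene was read, 250 bases before it on either strand. TGACGTCA stood in 3 of the 8, *Scg2*, *Chgb* and *Pcsk1*, beside 1.77% of all 27025 genes with a promoter. The shorter TGACGT, which the palindrome holds on both strands, stood in 5 of the 8, with *Chga* and *Scg5* added, beside 7.29% of all genes. The stretches around these sites are shown because they hold the motif that these 5 genes have in common, 5′ to 3′ on the strand of the gene, with the site in capitals:
*Chga*, chr12:102554871-102554928, plus strand: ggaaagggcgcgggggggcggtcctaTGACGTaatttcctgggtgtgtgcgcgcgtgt
*Chgb*, chr2:132781544-132781603, plus strand: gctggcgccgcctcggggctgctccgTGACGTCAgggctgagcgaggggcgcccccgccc
*Scg2*, chr1:79440061-79440120, minus strand: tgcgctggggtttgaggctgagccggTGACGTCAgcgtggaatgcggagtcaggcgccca
*Pcsk1*, chr13:75089753-75089812, plus strand: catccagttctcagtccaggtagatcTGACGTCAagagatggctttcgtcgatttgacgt
*Scg5*, chr2:113829235-113829292, minus strand: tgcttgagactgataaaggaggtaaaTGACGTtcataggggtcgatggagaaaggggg

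In *Chgb*, *Scg2* and *Pcsk1* the first base of the palindrome lay 72, 68 and 78 bases before the annotated start used. In *Chga* the first base of TGACGT lay 44 bases before the start and in *Scg5* 175 bases. A further TGACGT of *Pcsk1* began 50 bases before its start and is seen in lower case as the last letters of its stretch. For *Pcsk1* this start is not the first base of the gene span, chr13:75089420, but a later one. The stretch of *Chgb* lies inside its deposited exon 1 (chr2:132781278-132781782), and that of *Scg2* overlaps its deposited exon 2 (chr1:79439956-79440090). The textbook element of FXR, AGGTCA and its inverted copy around 1 free base, stood in none of the 8 promoters and in 0.0074% of all genes, and AGGTCA alone stood in none of the 8 and in 15.8% of all genes. These are matches of letters in this window.

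The deposited counts per exon were read for the 10 genes to see whether the exons of a gene moved alike. Of 72 exons, 47 passed the filter on low counts, and 25 were too low to test. None of the 47 passed an adjusted p under 0.05 by edgeR with a term for sex, beside 0.0185% of 26998 exons tested. At an unadjusted p under 0.05, 4 exons were lower in FXR-/- islets, all of *Chga* (3.10% of all exons), and 1 was higher, exon 2 of *Vgf* (4.68%). Values were apart between the genotypes for 5 exons that were lower in FXR-/- islets (5.73% of all exons) and for 3 that were higher (6.42%). With the replicate block, exon 3 of *Chga* and exon 2 of *Vgf* passed, beside 0.485% of all exons.

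*Vgf* has 2 deposited exons, and nearly all counts fell in exon 2 (chr5:137030966-137033351, 2386 bases). Its counts were 489, 501 and 559 in FXR+/+ and 767, 927 and 896 in FXR-/- islets, a log2 fold change of 0.88 (SE 0.177, adjusted p = 0.272 by edgeR and 0.00847 with the replicate block). Exon 1 of *Vgf* was counted at most 3 times in a library.

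*Chga* has 8 deposited exons on the plus strand, and its short exons 2 to 5 (47 to 159 bases, between chr12:102555885 and chr12:102561503) differed from the rest of the gene. Their summed counts were 489, 529 and 740 in FXR+/+ and 303, 301 and 332 in FXR-/- islets. Set against exons 6 to 8, which held 79443 to 139077 counts, this was 0.494%, 0.666% and 0.532% in FXR+/+ and 0.278%, 0.316% and 0.3001% in FXR-/- islets, with no overlap (0.564 ± 0.0902% against 0.298 ± 0.0189%, SD, n = 3, exact two-sided permutation p = 0.1, the smallest possible). The split into these exons was made after the values were seen.

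By exon, the log2 fold changes were -0.64 (SE 0.209) for exon 2, -0.81 (SE 0.152) for exon 3, -0.77 (SE 0.242) for exon 4 and -0.75 (SE 0.190) for exon 5, with edgeR adjusted p from 0.258 to 0.604. With the replicate block the adjusted p of exon 3 was 0.0266. Exons 6, 7 and 8, with 417, 476 and 418 bases, had log2 fold changes of 0.06, 0.21 and 0.16, and exon 1 of 0.23. Exons 2 to 5 were low in every library, and how a read was assigned to an exon is not stated. Exon counts summed to 6828839 to 11031678 per library, against library totals of 20629306 to 30139235 from the gene counts. In FXR+/+ female 1, *Chga* had 281719 gene counts, but its exons 6 to 8 held 98951. *Scg2*, whose exon 1 has 2350 bases, had 135017 gene counts there and 125578 on that exon. Whether reads across exon borders were left out was not tested, so these counts cannot be read as use of the exons. Among all 3508 tested exons of 47 to 159 bases, the median log2 fold change was -0.18, against 0.01 for all tested exons, and 13.7% were at or below -0.64. Exons of this length took 2.39% to 2.81% of the exon counts in FXR+/+ and 2.04% to 2.50% in FXR-/- libraries, and the part of this in the difference of *Chga* was not tested.

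**Figure D3:**
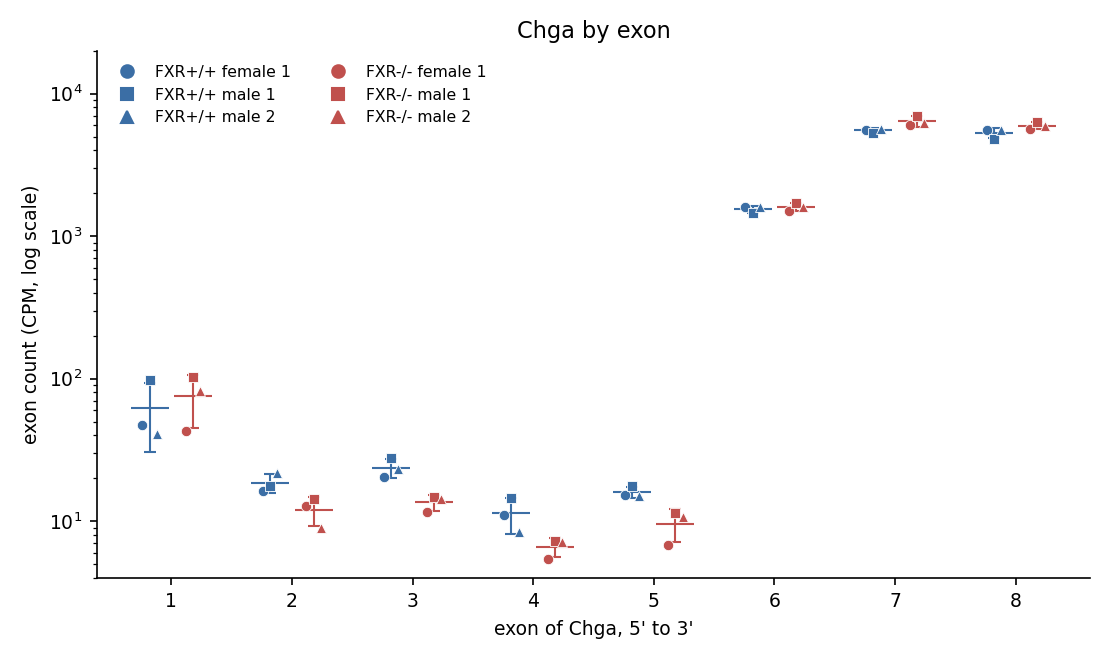
Exon counts of *Chga* (CPM of the exon table, log scale) by exon from 5′ to 3′ in each library, with bars at the mean and whiskers of 1 SD (n = 3). Exons 2 to 5 were lower in each FXR-/- library than in each FXR+/+ library, while exon 6 overlapped and exons 7 and 8 were slightly higher in FXR-/- islets.

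In the other genes no exon was lower at an unadjusted p under 0.05, but most tested exons of 47 to 159 bases had negative log2 fold changes. These were -0.95 and -0.68 for exons 7 and 2 of *Scg3*, -0.75 for exon 3 of *Cpe* and -0.61 for exon 4 of *Scg5*. Exon 2 of *Pcsk2* was at -0.33, exons 3 and 2 of *Chgb* at -0.32 and -0.08, and exon 2 of *Scg2* at -0.29. Positive values were 0.30 for exon 2 of *Cpe*, 0.22 for exon 3 of *Scg3* and 0.09 for exon 3 of *Scg5*. *Pcsk1n*, with 3 exons, had log2 fold changes of 0.34 to 0.48. The 4 tested exons of *Scg5* ran from -0.61 to 0.21, and its exon 4, counted 25, 25 and 37 times in FXR+/+ and 25, 11 and 16 times in FXR-/- libraries, was the fifth of the exons lower without overlap. The tested exons of *Scg3* ran from -0.95 to 0.33, those of *Cpe* from -0.75 to 0.49 and those of *Pcsk2* from -0.33 to 0.50, and at an unadjusted p under 0.05 none of them was higher or lower. The ratio of the first to the last exon was 0.482 to 0.803 in FXR+/+ and 0.592 to 0.950 in FXR-/- libraries for *Cpe*. It was 0.384 to 0.566 and 0.402 to 0.611 for *Scg3*, and 0.347 to 0.486 and 0.383 to 0.523 for *Pcsk1*. For these genes the highest value of each genotype was in male 1. *Pcsk2* went the other way, at 0.188 to 0.217 in FXR+/+ and 0.174 to 0.198 in FXR-/- libraries, with the highest value of each genotype in female 1.

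Of the cargo that these granules carry, the abundant hormones overlapped between the genotypes. *Ins1*, *Ins2*, *Gcg*, *Sst*, *Ppy* and *Pyy* had higher means in FXR-/- islets, and *Iapp* a lower one. A further 4 peptide precursors of lower level were higher at an unadjusted p under 0.05 by edgeR, and of these *Gal* and *Nucb2* overlapped too. Of 12 cargo genes 11 passed the filter, 10 had a positive log2 fold change, and the median was 0.24. At an unadjusted p under 0.05, 4 of the 11 were higher and 0 lower, beside 6.18% and 4.15% of all genes, and none passed the adjusted threshold. *Ins2*, an insulin gene and the most abundant, was counted at 134603 to 156034 CPM in FXR+/+ and 132377 to 199905 CPM in FXR-/- islets.

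The 4 cargo genes were *Cartpt*, *Gal*, *Npy* and *Nucb2*. *Cartpt*, the precursor of the peptide CART, was counted only 23, 30 and 27 times in FXR+/+ and 67, 64 and 56 times in FXR-/- libraries, without overlap (log2 fold change 1.37, SE 0.296, adjusted p = 0.286 by edgeR). *Gal*, the precursor of galanin, stood at 8.52, 12.9 and 5.84 CPM in FXR+/+ and at 12.8, 26.5 and 16.1 CPM in FXR-/- islets, with a slight overlap (log2 fold change 0.99, SE 0.321, adjusted p = 0.430 by edgeR). *Npy*, encoding neuropeptide Y, stood at 14.0, 16.2 and 6.25 CPM in FXR+/+ and at 29.9, 17.0 and 16.7 CPM in FXR-/- islets. The *Npy* ranges were apart by a small margin, and the log2 fold change was 0.77 (SE 0.312, adjusted p = 0.474 by edgeR). *Nucb2*, the precursor of nesfatin, overlapped between the genotypes (164 ± 16.0 and 208 ± 49.2 CPM, SD, n = 3, log2 fold change 0.32, adjusted p = 0.430 by edgeR).

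**Figure D4:**
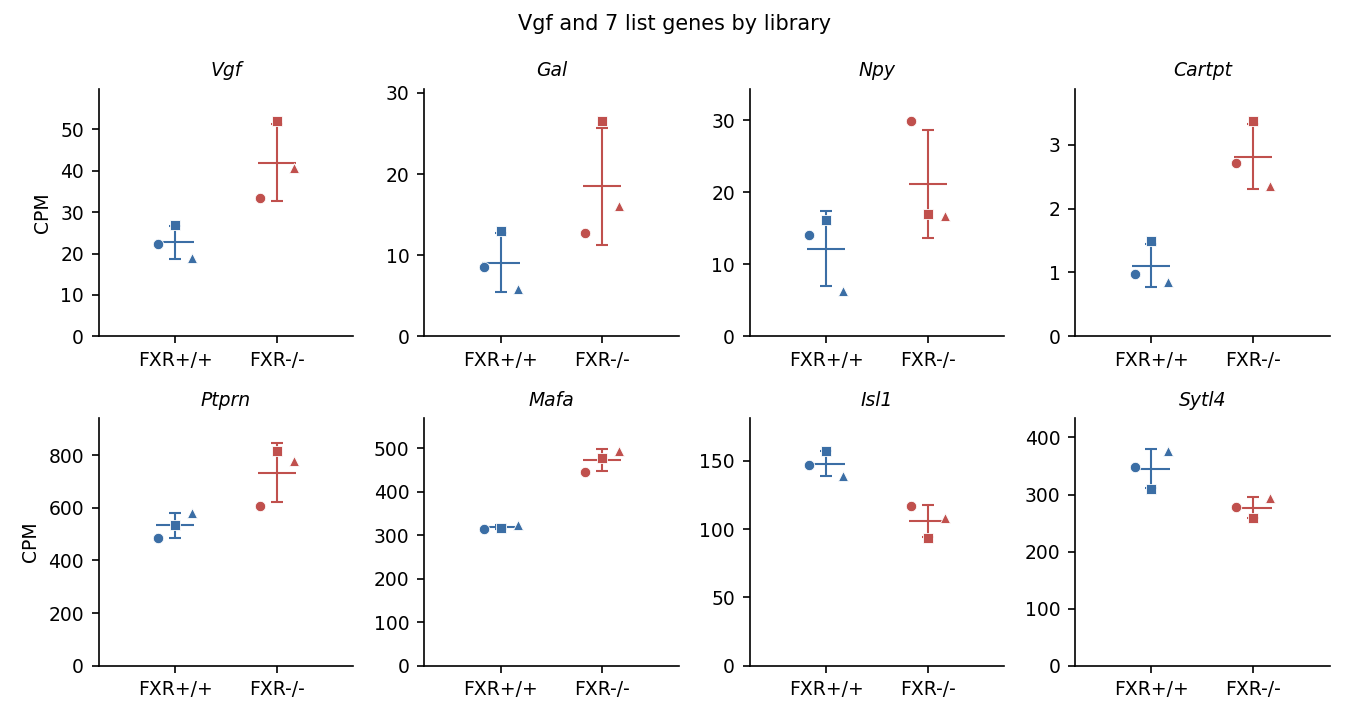
Normalised read count (CPM, axes from 0) of *Vgf* and 7 genes of the lists in each library, with circles for female 1, squares for male 1, triangles for male 2, bars at the mean and whiskers of 1 SD (n = 3). The genotypes do not overlap in *Vgf*, *Npy*, *Cartpt*, *Ptprn*, *Mafa*, *Isl1* and *Sytl4* and overlap slightly in *Gal*.

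Other enzymes of precursor processing were close to the background. Of 15 tested genes 8 had a positive and 7 a negative log2 fold change, with a median of 0.03. At an unadjusted p under 0.05, 1 of the 15 was higher, beside 6.18% of all genes. This gene was *Cpm*, a carboxypeptidase of the cell surface (log2 fold change 0.27, SE 0.0986, adjusted p = 0.453 by edgeR). *Ero1b* (listed as *Ero1lb*), an oxidase that serves disulfide bonds of proinsulin and the most abundant of the list, had an FXR+/+ mean of 1864 ± 302 CPM and an FXR-/- mean of 1967 ± 284 CPM (SD, n = 3), with a fitted log2 fold change of 0.07 (adjusted p = 0.896 by edgeR).

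Among 17 genes of the granule membrane, zinc transport and docking, 6 had a positive and 11 a negative log2 fold change, the median was -0.08, and the libraries did not overlap for 7 (15.4% of all genes in either direction). *Ptprn*, encoding the granule membrane protein IA-2, was counted at 485, 534 and 581 CPM in FXR+/+ and at 608, 818 and 777 CPM in FXR-/- islets, without overlap. Its log2 fold change was 0.45 (SE 0.109), with an adjusted p of 0.334 by edgeR, 0.138 with the replicate block and 0.000207 by DESeq2. The transcript of *Ptprn* has 59.5% GC, and with the GC offset the log2 fold change was 0.32 (adjusted p = 0.551 by edgeR). *Ptprn2*, its paralog and the most abundant of the list, stood at 978 ± 78.7 and 994 ± 27.0 CPM (SD, n = 3, log2 fold change 0.02, adjusted p = 0.954 by edgeR). *Cyb561*, which brings electrons into the granule, had a log2 fold change of 0.29 (SE 0.0968, adjusted p = 0.435 by edgeR). *Sytl4*, encoding granuphilin, which docks granules, was lower in each FXR-/- library, at 349, 310.2 and 377 CPM against 278, 258 and 295 CPM (log2 fold change -0.32, SE 0.108, adjusted p = 0.444 by edgeR).

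The 20 genes of granule biogenesis and sorting were nearly even, with 11 positive and 9 negative log2 fold changes between -0.18 and 0.24 and a median of 0.01. At an unadjusted p under 0.05, 1 of the 20 was higher, beside 6.18% of all genes. This was *Sorl1*, a sorting receptor (log2 fold change 0.23, SE 0.0762, adjusted p = 0.430 by edgeR). *Golga4*, a golgin and the most abundant, stood at 342 ± 41.7 and 345 ± 20.1 CPM (SD, n = 3).

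Of 11 transcriptional regulators of granule genes, 3 had a positive and 8 a negative log2 fold change, with a median of -0.08. At an unadjusted p under 0.05 by edgeR, 1 of the 11 was higher and 1 lower, beside 6.18% and 4.15% of all genes. *Mafa*, a transcription factor of mature beta cells, was counted at 314, 317 and 324 CPM in FXR+/+ and at 446, 477 and 495 CPM in FXR-/- islets, with a gap wider than the spread of either genotype. Its log2 fold change was 0.57 (SE 0.0880), with an adjusted p of 0.217 by edgeR, 0.0667 with the replicate block and 9.68e-11 by DESeq2. Its transcript has 65.0% GC, and with the GC offset the log2 fold change was 0.37. *Isl1*, a transcription factor of islet endocrine cells, was lower in each FXR-/- library, at 147, 157 and 139 CPM against 117, 93.6 and 108 CPM (log2 fold change -0.48, SE 0.0988). Its adjusted p was 0.266 by edgeR, 0.0978 with the replicate block and 0.00231 by DESeq2. With the GC offset the log2 fold change of *Isl1* was -0.42 (adjusted p = 0.309 by edgeR). *Pax6*, at 329 ± 3.49 and 300 ± 27.4 CPM (SD, n = 3), and *Creb1*, which encodes the factor that binds TGACGTCA, at 53.1 ± 4.21 and 50.3 ± 2.46 CPM, did not pass the test (log2 fold changes -0.13 and -0.08, adjusted p = 0.602 and 0.709 by edgeR). *Creb1* was named for that motif after its values were seen.

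**Figure D5:**
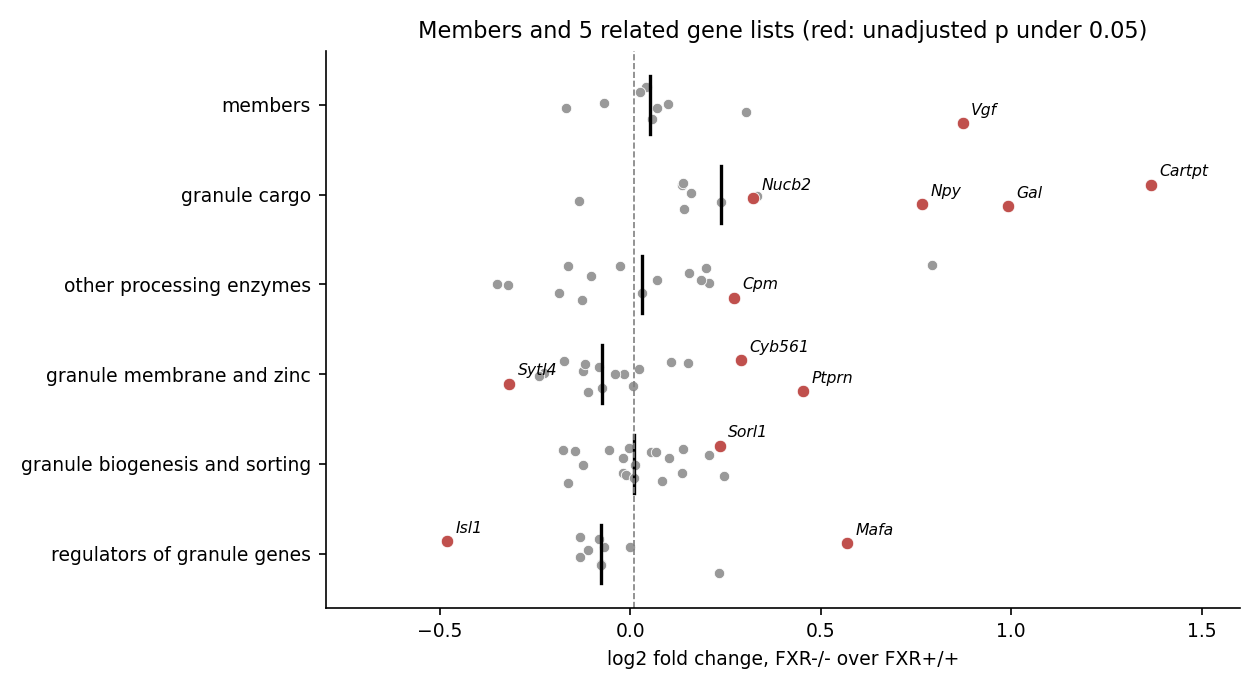
Log2 fold change of FXR-/- over FXR+/+ for the 10 genes (labelled members) and 5 related gene lists. Each point is a gene, red points have an unadjusted p under 0.05 by edgeR, black bars are list medians, and the dashed line is the median of all tested genes, 0.01. *Cartpt*, *Gal*, *Vgf* and *Npy* lie farthest to the right among the red points.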

How the data were processed

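Poly(A) RNA of islets freed with collagenase was read as cDNA made with random hexamers in 6 libraries. The authors deposited whole-number counts per gene and per exon without normalization. HISAT is named in the submitters' processing notes. The counting tool, its use of strand and its rule for exons are not given in the sources used here. A comparison of the genotypes by the authors, with fold changes and p-values, was not used. Every per-sample column was used, and 0 lines named no gene.

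The test was the quasi-likelihood test of edgeR 4.0.16, run in R 4.3.3 (filterByExpr with minimum count 10 and minimum total 15, TMM, glmQLFit, glmQLFTest), with terms for sex and genotype over all 6 libraries, with 3 residual and 4.43 prior degrees of freedom and Benjamini-Hochberg adjustment over all genes tested. DESeq2 1.42.0 was an alternative. Exons were fitted in the same way. Standard errors were taken from the F statistic, and those called from the spread between libraries were taken from log2 CPM. CPM are counts per 1000000 after TMM. Scripts were tested on simulated data. GC content is that of the longest GENCODE vM21 transcript and was found for 95.8% of tested genes and for all 10 granule genes. The labels number the libraries but do not state that same-numbered libraries are pairs. Deviations of same-numbered libraries from their genotype means correlated at 0.361, 0.367 and 0.323 over genes, and those of other pairings at -0.312 to 0.02. Deviations from a mean sum to 0 within a genotype, so these values are not independent. The numbers were taken as pairs on these same data, and the replicate block rests on that choice. The 10 genes, the gene lists and the tests were chosen with earlier results of these data known. Named were the 10 genes, *Nr1h4* and, of each list, the genes with an unadjusted p under 0.05 and the most abundant gene.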

Additional observations from a re-analysis of the deposited data

How the results depend on the processing

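No gene was called by edgeR with a term for sex at an adjusted p under 0.05. With the replicate block 23 genes were called, with DESeq2 170, with the exon counts summed per gene 4, with the acinar term 7 and with the replicate block and GC offset 11. Of the 10 granule genes, 1 (*Vgf*) was called with the replicate block and 1 (*Vgf*) with DESeq2, and the block changed no other call among the 10. *Nr1h4* was called with the replicate block and with DESeq2 as well. The interaction of sex and genotype gave 3 genes by DESeq2 and 0 by edgeR. Exons called numbered 5, against 131 with the replicate block and 2 with at least 10 counts in every library.

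Log2 fold changes near 0 changed sign in 19 of 206 values. With library size alone, which moved the median of all genes to -0.0866, *Chgb* (-0.0715), *Scg2* (-0.0522), *Pcsk2* (-0.0534), *Cpe* (-0.0399) and *Scg5* (-0.0240) turned negative. With the GC offset *Chga* was at -0.0281, *Chgb* at -0.0391 and *Pcsk1* at 0.0550, and with the replicate block and GC offset at -0.0203, -0.0340 and 0.0590. With the acinar term *Pcsk1* was at 0.0591. Leaving out 1 library at a time, *Chgb* ran from -0.0610 to 0.0942, *Scg2* from -0.0397 to 0.148, *Cpe* from -0.00520 to 0.126 and *Pcsk1* from -0.187 to 0.0630. The log2 ratio of *Scg5* to *Pcsk2* was -0.0440 from the exon counts and ran from -0.0162 to 0.0519 without 1 library, that of *Pcsk1* to *Pcsk2* from -0.231 to 0.0627, and that of *Pcsk1n* to *Pcsk1* from 0.0662 to 0.517. The cause of these shifts was not tested.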
